A study of Mus musculus with 12 samples.

Results

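The genes described here are a fixed list of 42 mouse genes of DNA replication and the S phase of the cell cycle, matched by symbol, out of 48795 genes in the deposited table. All 42 passed the filter on low counts that left 14704 genes for testing. Total RNA was sequenced from NIH3T3, an immortalised fibroblast line from mouse embryos, in 12 libraries of 4 lines. The clones F5, G5 and H7 are derivatives with the gene Aebp1 knocked out, labelled AEBP1 KO and sampled at passages 7, 8 and 9. The Parental line, labelled WT, was sampled at passages 6, 7 and 8. DMEM/F12 with 10% FBS (serum) was the growth medium of every line, and no agent was given to any of them. Each line has 3 libraries, 1 per passage. Nothing in the labels marks the passages as independent cultures, so p-values here measure only how these samples vary, which may be technical. Each knockout line is 1 clone, so cloning and the loss of Aebp1 cannot be told apart.

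A chromosome is copied from many origins. In G1 the origin recognition complex, Cdc6 and Cdt1 load the Mcm helicase onto DNA, and in S phase Mcm10, Cdc45 and the GINS complex turn it into a moving fork. DNA polymerase alpha starts each strand, polymerases delta and epsilon extend it on the sliding clamp Pcna, and Fen1 and Lig1 join the fragments of the lagging strand. Ribonucleotide reductase, thymidylate synthase and thymidine kinase supply the nucleotides. Many of these genes are transcribed by E2F factors, which are released from the retinoblastoma protein when cyclin-dependent kinases act at the G1-S boundary, and their RNA level follows the share of growing cells that are entering or in S phase.

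The promoter sequences are shown because the genes of the list moved together between passages. RefSeq promoter windows (build GRCm38.p6, from 250 bases before to 50 after each gene's start) were found for 35 of the 42 genes, in 40 windows. Each window was searched on both strands for the E2F-type letters TTTCCCGC, TTTGGCGC, TTTCGCGC and TTTGCCGC, and for CCAAT, the letters bound by the factor NF-Y. The 160 bases before the RefSeq start are printed, 5′ to 3′ on the gene's own strand. They are given for the 7 genes with a full E2F-type match there, which is in capitals, and for Rrm2. Rrm2 is shown because it had the largest fall between passages while its window held no E2F-type match, and its CCAAT is in capitals. CCAAT is not particular to Rrm2: it, or ATTGG on the other strand, is left in lower case in Mcm6, Orc1, Mcm5, Gins3 and Pola1. The stretches lie at chr1:128359706-128359865 (minus strand) for Mcm6, chr4:108579294-108579453 (plus) for Orc1, chr5:151651209-151651368 (minus) for Rfc3 and chr8:75109349-75109508 (plus) for Mcm5. Those of the other genes are chr8:95633399-95633558 (plus) for Gins3, chr11:98907991-98908150 (plus) for Cdc6, chr12:24708094-24708253 (plus) for Rrm2 and chrX:93632156-93632315 (minus) for Pola1. The RefSeq starts are not always the gene starts of GENCODE release M21. By the latter the Cdc6 stretch lies wholly within the gene. The genes of Orc1, Rfc3, Gins3 and Rrm2 start inside their stretches, and the E2F-type matches of Orc1, Rfc3 and Gins3 lie within the gene.
Mcm6: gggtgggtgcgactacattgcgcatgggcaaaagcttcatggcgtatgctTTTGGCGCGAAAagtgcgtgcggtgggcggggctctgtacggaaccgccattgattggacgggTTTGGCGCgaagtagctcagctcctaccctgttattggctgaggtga
Orc1: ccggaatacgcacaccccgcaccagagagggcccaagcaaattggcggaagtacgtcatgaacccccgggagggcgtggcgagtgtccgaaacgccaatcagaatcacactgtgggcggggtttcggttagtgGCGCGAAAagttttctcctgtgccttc
Rfc3: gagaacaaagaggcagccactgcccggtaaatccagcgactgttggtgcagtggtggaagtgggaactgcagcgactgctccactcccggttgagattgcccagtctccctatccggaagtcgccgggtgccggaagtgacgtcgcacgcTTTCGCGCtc
Mcm5: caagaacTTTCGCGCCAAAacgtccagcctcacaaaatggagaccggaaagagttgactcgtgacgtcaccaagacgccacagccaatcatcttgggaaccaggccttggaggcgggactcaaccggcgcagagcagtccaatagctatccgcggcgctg
Gins3: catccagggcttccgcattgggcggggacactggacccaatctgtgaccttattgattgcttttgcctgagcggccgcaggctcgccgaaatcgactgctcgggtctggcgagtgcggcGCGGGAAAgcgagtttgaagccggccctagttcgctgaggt
Cdc6: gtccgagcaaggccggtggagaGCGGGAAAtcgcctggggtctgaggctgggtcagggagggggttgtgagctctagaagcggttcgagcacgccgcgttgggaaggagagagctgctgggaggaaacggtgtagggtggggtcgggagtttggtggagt
Rrm2: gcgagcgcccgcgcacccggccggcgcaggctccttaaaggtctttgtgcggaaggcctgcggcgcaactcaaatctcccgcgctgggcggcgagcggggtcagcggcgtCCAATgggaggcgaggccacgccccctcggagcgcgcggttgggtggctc
Pola1: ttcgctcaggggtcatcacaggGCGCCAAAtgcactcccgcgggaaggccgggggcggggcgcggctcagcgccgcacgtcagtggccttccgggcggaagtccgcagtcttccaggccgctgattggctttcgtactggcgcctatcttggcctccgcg
The matches overlap in Mcm6, at 110 and 106 bases before the start (positions -110 and -106), and in Mcm5, at positions -153 and -149.

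An E2F-type match was present in 13 of the 40 windows of the list (32.5%), against 744 of all 32851 promoter windows (2.26%). Windows were found for 51 of 62 other replication, nucleotide, chromatin and G1-S genes, and for 14 of 16 G2 and mitosis genes. The former held a match at a like share, in 21 of 64 windows (32.8%), and the latter in 1 of 14 (7.14%). CCAAT was found in 22 of the 40 windows (55.0%), against 37.4% of all windows and 92.9% of the mitosis windows. A match is a run of letters and not a measured site. In the comparison of passages described below, the median log2 fold change of middle over outer passages of the genes with an E2F-type match was -0.44 (13 genes, 12 called lower), and that of the genes with a window and no match -0.42 (22 genes, 20 called lower).

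Library totals lay between 22088714 and 31329755 counts, and 18304 to 18916 genes had a count. Aebp1 had 122.8 to 214.3 counts per 1000000 (CPM) in the clone libraries, against 466.6 to 612.8 CPM in the Parental libraries. Its RNA was thus lower but present in every clone, and the labels do not say which part of the gene was edited. All 8 fibroblast markers were above 1 CPM in every library. Of the other markers, Epcam (epithelium), Kdr (endothelium) and Cd3e (T cells) were at 0 in every library. Others were detected: Cd68 (leukocytes) had 3.04 to 4.90 CPM, Tubb3 (neurons) 0.51 to 9.47 CPM and Krt14 (epithelium) 0.55 to 1.47 CPM.

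All 42 genes were expressed in every library. Levels are compared between genes in transcripts per 1000000 (TPM), which take gene length into account. Pcna, the sliding clamp, had the highest mean of the list, 135.1 TPM over the 12 libraries (range 97.99 to 157.6). Uhrf1, which brings the maintenance DNA methyltransferase to newly copied DNA, followed at 125.2 TPM (78.68 to 161.7). Mcm7, a helicase subunit, averaged 124.3 TPM (75.78 to 152.9). Their ranges overlapped, so the order of these 3 is not larger than the spread between libraries. The other Mcm subunits averaged 76.91 (Mcm4) to 100.7 TPM (Mcm6). Gins3, a subunit of the GINS complex, was lowest of the 42 at 7.98 TPM, and Ung, the uracil-DNA glycosylase, averaged 8.73 TPM. Within the other roles the highest means were 28.2 TPM for Gins4 (helicase activation), 46.7 TPM for Pola2 (the second subunit of polymerase alpha) and 52.0 TPM for Lig1 (DNA ligase 1). Thymidine kinase Tk1 led the nucleotide enzymes at 80.5 TPM, and E2f1, a transcription factor of the G1-S boundary, led the G1-S regulators at 22.5 TPM.

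The comparison of the knockout clones with Parental asks whether the loss of Aebp1 goes with a change in these genes. In the mean of the 3 clones, 0 of the 42 genes passed edgeR's quasi-likelihood test at an adjusted p under 0.05, where 19.0% of all tested genes did. Before adjustment 1 gene (Dut) had a p under 0.05, against 4763 of all 14704 tested genes, and the count by DESeq2 was 0. The median log2 fold change of the list was 0.04 (from -0.31 for Tk1 to 0.31 for Dut), beside -0.02 over all genes. No gene of the list had all 9 clone libraries below, or all 9 above, the 3 Parental libraries, while 5.16% of all genes lay below in this way and 5.49% above. The p-values that missed the threshold do not show that the levels are the same.

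**Figure D1:**
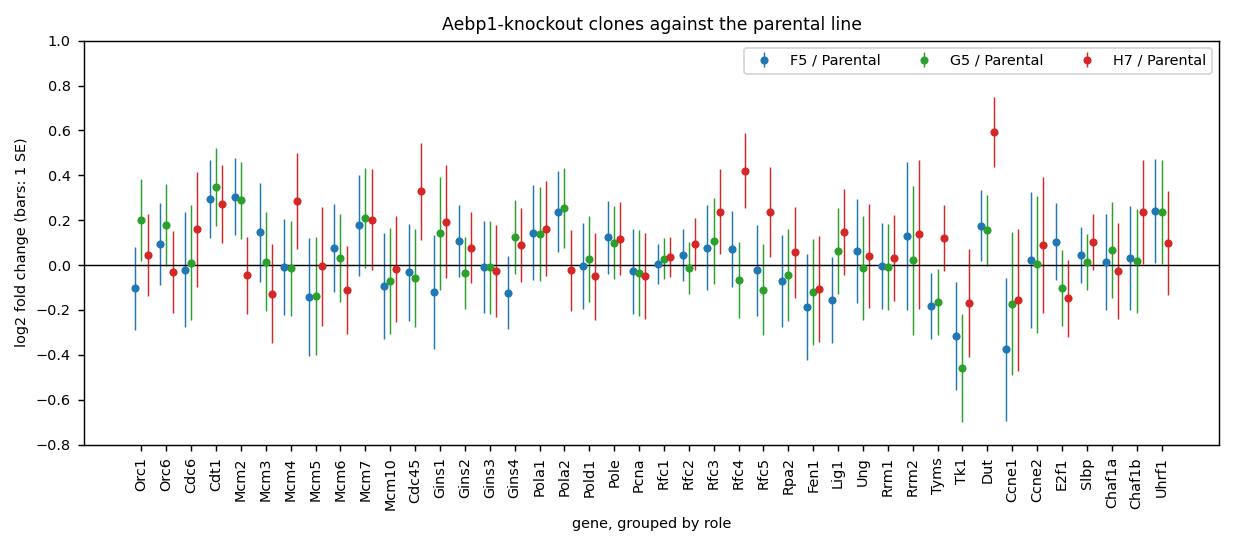
Log2 fold change of each of the 42 genes in F5, G5 and H7 over Parental, with bars of 1 SE, genes grouped by role. The points lie near 0 in each clone (medians 0.02, 0.01 and 0.08), and Dut in H7, at 0.59, is the highest point and the one that passed the test.

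F5 over Parental gave 0 called genes of 42 (14.3% of all genes were called) and 0 by DESeq2. At an unadjusted p under 0.05 it had 0 of 42, against 4277 of all 14704 tested genes. G5 over Parental likewise gave 0 called (13.1% of all genes) and 0 by DESeq2. At an unadjusted p under 0.05 it had 0 of 42, against 4090 of all tested genes. In H7, 1 of 42 was called, Dut, which was higher (9.64% of all genes were called higher), and DESeq2 called the same gene. The medians of the list were 0.02 in F5, 0.01 in G5 and 0.08 in H7. Of the cell type markers, Col3a1 and Col1a1 were lower in F5 and in G5. Ptprc was lower in G5, at 0 to 0.04 CPM against 0.31 to 0.59 CPM in Parental. Cdh1 was higher in H7, at 0.52 to 0.88 CPM against 0 to 0.04 CPM in Parental. The part of these markers in these results was not tested.

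Dut encodes dUTPase, which removes dUTP so that uracil is not built into DNA, and lies at chr2:125247190-125258608 (GRCm38). It had 55.2, 49.9 and 46.3 CPM in H7 at passages 7, 8 and 9, against 39.5, 24.8 and 36.1 CPM in Parental at passages 6, 7 and 8. The 3 H7 libraries were all above the 3 Parental ones. F5 had 39.9, 33.5 and 40.0 CPM and G5 had 42.2, 35.9 and 33.6 CPM, and both overlapped Parental. In H7 over Parental the log2 fold change was 0.59 (SE 0.16, edgeR adjusted p = 0.0218). The call was lost without H7 passage 7 (log2 fold change 0.52, adjusted p = 0.0851), without H7 passage 8 (0.60, adjusted p = 0.0581) and when edgeR was run on the H7 and Parental libraries alone (0.60, adjusted p = 0.0746).

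The genes with the highest TPM of their roles show how the lines overlapped. Mcm7 ranged from 138.3 to 205.6 CPM in the clones (median 185.0), against 185.4, 100.8 and 177.0 CPM in Parental at passages 6, 7 and 8. Pcna ranged from 88.0 to 121.0 CPM (median 115.6) in the clones, against 128.3, 77.4 and 128.9 CPM in Parental. Uhrf1 ranged from 178.9 to 293.1 CPM (median 232.0) in the clones, against 254.9, 140.5 and 227.5 CPM in Parental. In each of these genes the Parental library of passage 7 lay below every clone library, and the other Parental values fell among or above the clone values. Lig1 ranged from 61.1 to 98.7 CPM (median 86.2) in the clones, against 95.1, 59.6 and 92.4 CPM in Parental. Pola2 ranged from 51.5 to 76.2 CPM (median 59.3) in the clones, against 65.9, 42.2 and 62.5 CPM in Parental. Gins4 ranged from 16.4 to 25.3 CPM (median 20.1) in the clones, against 22.6, 16.0 and 22.9 CPM in Parental. These 3 genes repeat the pattern of a low Parental passage 7 within an otherwise shared range. E2f1 ranged from 27.7 to 43.5 CPM (median 32.2) in the clones, against 38.8, 26.0 and 38.8 CPM in Parental. Tk1 ranged from 37.9 to 67.5 CPM (median 61.8) in the clones, against 80.0, 49.2 and 88.5 CPM in Parental. In Tk1, as in Pcna, the Parental libraries of passages 6 and 8 were both above all 9 clone libraries, and the Tk1 log2 fold change of -0.31 in the mean of clones did not pass the test (SE 0.19, edgeR adjusted p = 0.29).

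When the place of a library in its line's order of passages was added as a term, a few more genes passed. In the mean of clones 3 of 42 were called (33.4% of all genes were): Dut (0.32) and Cdt1, the licensing factor (0.32), were higher and Tk1 (-0.29) was lower. F5 then had 2 called genes (28.7% of all genes), Mcm2 (0.32) and Pola2 (0.25), both higher. G5 had 3 (26.8% of all genes): Mcm2 (0.30) and Pola2 (0.26) were higher and Tk1 (-0.45) was lower. H7 had 6 (32.7% of all genes), all higher: Dut (0.61), Rfc4 (0.43), Cdc45 (0.36), Mcm4 (0.33), Chaf1b (0.26) and Rfc3 (0.25). Between clones the same term gave 7 called genes in F5 over H7 (31.3% of all genes) and 8 in G5 over H7 (29.6%). These shares of the list were below those of all genes in each comparison.

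Between clones the list also gave no call in the fit with line as its only term. F5 over G5 had 0 of 42 (0.258% of all genes) and 0 by DESeq2. Before adjustment 0 were under 0.05, against 734 of all 14704 tested genes. F5 over H7 had 0 of 42 (17.9% of all genes) and 0 by DESeq2. Before adjustment 1 gene was under 0.05, against 4525 of all tested genes. G5 over H7 had 0 of 42 (17.4% of all genes), with 2 genes under 0.05 before adjustment (4322 of all genes). DESeq2 called both of them lower, Rfc4 (log2 fold change -0.49, adjusted p = 0.0405) and Dut (-0.44, adjusted p = 0.0489). The clones share passage numbers, and same-numbered clone libraries deviated together, so the 9 knockout libraries were also fitted with a replicate block of passage number.

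With that block F5 over G5 still had 0 of 42 called (3.65% of all genes). F5 over H7 had 13 of 42 (42.3% of all genes): 4 were higher (Mcm2, Pola2, Mcm3 and E2f1) and 9 lower. The lower ones were Dut, Cdc45, Mcm4, Tyms, Lig1, Rfc5, Gins4, Rfc4 and Chaf1b. G5 over H7 had 10 of 42 (40.1% of all genes): Mcm2 and Pola2 were higher, and Dut, Cdc45, Mcm4, Rfc5, Rfc4, Tyms, Tk1 and Chaf1b were lower. The largest log2 differences were those of Rfc4 in G5 over H7 (-0.50, SE 0.11, edgeR adjusted p = 0.00502) and of Dut in the same comparison (-0.44, SE 0.07, edgeR adjusted p = 0.00053). The members called in both comparisons thus included the helicase subunits Mcm2 (log2 fold change 0.34 in F5 over H7 and 0.32 in G5 over H7) and Mcm4 (-0.31 and -0.32), with opposite signs. In F5 over H7 and in G5 over H7 the H7 libraries are the same, so the values are given side by side.

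Some of these genes lie on chromosomes whose genes differed as a whole in H7 or F5. Chromosome 16 holds Mcm4, Cdc45, Rfc4 and Chaf1b, and the log2 fold changes in H7 over Parental of its 425 tested genes had their median at 0.22, beside 0.29, 0.33, 0.42 and 0.24 for these genes in that order. Chromosome 6 holds Mcm2, and its 782 tested genes had a median of 0.28 in F5 over H7, beside 0.35 for Mcm2. Chromosome 7 holds Lig1, and its 1127 tested genes had medians of -0.20 in F5 over Parental and -0.16 in F5 over H7. In F5 over H7 Lig1 had -0.30, and Pold1, Rrm1 and Ccne1 of the same chromosome had 0.05, -0.04 and -0.22. Chromosome 2 holds Dut, and the median of its 1137 tested genes in H7 over Parental was -0.13, beside 0.59 for Dut. The part of the chromosomes' shifts in the results of these genes was not tested.

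The comparison of passages gave most of the calls in the list. Each line was sampled at 3 consecutive passages, and the second of them, passage 8 in the clones and passage 7 in Parental, is called the middle passage. In the middle passages 39 of the 42 genes were lower than in the outer passages (15.6% of all genes were called lower) and 0 were higher (16.5% of all genes were called higher). The median log2 fold change of the list was -0.44 (from -0.77 for Rrm2 to -0.18 for Rfc1), beside 0.02 over all genes. DESeq2 called 41 lower. Without Parental passage 7, the library with the lowest sum of these genes, 39 were called lower with a median of -0.35, and without the 3 H7 libraries 40 were, with a median of -0.53. In bulk RNA, fewer cells in S phase and less of these RNAs per cell cannot be told apart.

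**Figure D2:**
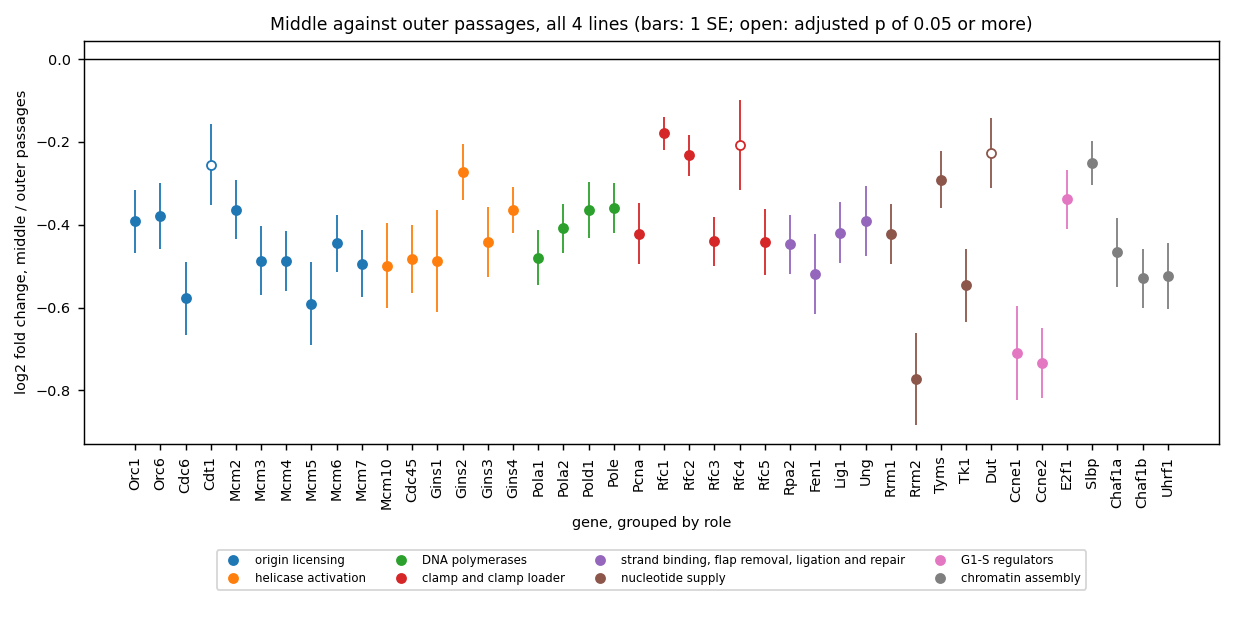
Log2 fold change of middle over outer passages for each of the 42 genes over all 4 lines, with bars of 1 SE and colours for roles. All 42 points are below 0, and the open points are the 3 genes that did not pass the test (Dut, Cdt1 and Rfc4).

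By role, the lower genes were 9 of 10 in origin licensing, 6 of 6 in helicase activation, 4 of 4 DNA polymerase subunits and 5 of 6 in the clamp and its loader. They were also 4 of 4 in strand binding, flap removal, ligation and repair, 4 of 5 in nucleotide supply, 3 of 3 G1-S regulators and 4 of 4 in chromatin assembly. The median log2 fold change was lowest for the G1-S regulators (-0.71) and nearest to 0 for the clamp and its loader (-0.33). Among those that did not pass, Dut had a log2 fold change of -0.23 (edgeR adjusted p = 0.0636), Cdt1 of -0.25 (adjusted p = 0.0675) and the clamp loader subunit Rfc4 of -0.21 (adjusted p = 0.17).

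The largest falls of the list were those of Rrm2, Ccne2 and Ccne1. Cyclin E2 (Ccne2), which activates Cdk2 at the G1-S boundary, had 11.1, 11.5, 14.7 and 10.5 CPM in the middle libraries of F5, G5, H7 and Parental, against 18.8 to 21.6 CPM (median 19.5) in the 8 outer libraries. All 4 middle libraries were below all outer ones, at a log2 fold change of -0.73 (SE 0.08, edgeR adjusted p = 0.000453), the smallest p of the list. Rrm2, the regulated subunit of ribonucleotide reductase, had 51.1, 44.5, 63.8 and 35.2 CPM in the middle libraries in the same order of lines, against 76.0 to 87.9 CPM (median 82.4) in the outer libraries. Its groups did not overlap either, and its log2 fold change of -0.77 (SE 0.11, edgeR adjusted p = 0.00112) was the largest fall of the list. Cyclin E1 (Ccne1) fell by 0.71 on the log2 scale (SE 0.11, edgeR adjusted p = 0.00164). Tk1 had 42.6, 37.9, 60.5 and 49.2 CPM in the middle libraries, against 58.7 to 88.5 CPM (median 66.6) in the outer libraries. The H7 middle value of Tk1 lay above the lowest outer value, so its groups overlapped, and its log2 fold change was -0.55 (SE 0.09, edgeR adjusted p = 0.00176). E2f1 had 30.4, 27.7, 30.2 and 26.0 CPM in the middle libraries, against 29.7 to 43.5 CPM (median 37.0) in the outer libraries. These groups overlapped as well, at a log2 fold change of -0.34 (SE 0.07, edgeR adjusted p = 0.00609).

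**Figure D3:**
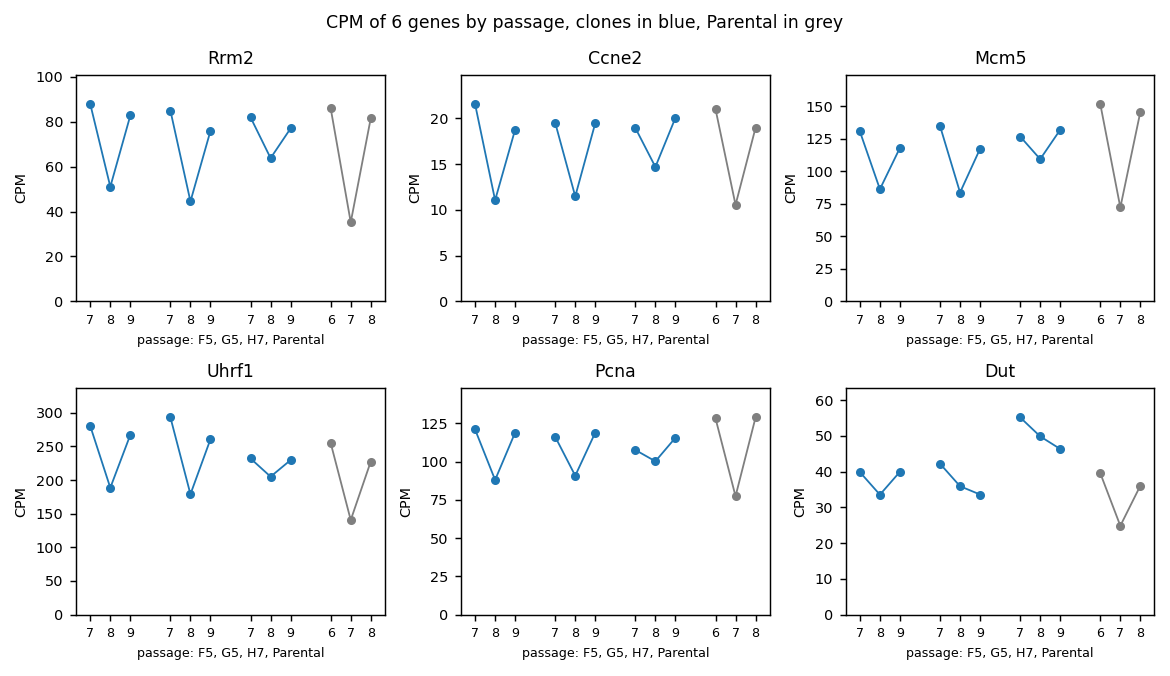
CPM of Rrm2, Ccne2, Mcm5, Uhrf1, Pcna and Dut by passage number, in F5, G5 and H7 (blue) and Parental (grey), 1 point per library, with axes that start at 0. In the panels other than Dut the middle point of each line is its lowest, while in Dut the lines G5 and H7 have their lowest point at passage 9.

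Among the licensing genes, Cdc6, the loader of the Mcm helicase, had 15.5, 16.7, 22.6 and 14.6 CPM in the middle libraries of F5, G5, H7 and Parental, against 24.0 to 28.4 CPM (median 26.1) in the outer libraries. The groups did not overlap, and the log2 fold change was -0.58 (SE 0.09, edgeR adjusted p = 0.00138). Mcm4 had 112.8, 109.4, 161.4 and 98.4 CPM in the middle libraries, against 156.5 to 183.1 CPM (median 164.0) in the outer libraries. The middle value of H7 alone reached into the outer range, and the log2 fold change was -0.49 (SE 0.07, edgeR adjusted p = 0.0013). Mcm7 had 138.3, 141.0, 161.4 and 100.8 CPM in the middle libraries, against 171.4 to 205.6 CPM (median 187.2) in the outer libraries. It did not overlap and had a log2 fold change of -0.49 (SE 0.08, edgeR adjusted p = 0.00179). The 6 subunits of the Mcm ring all fell, from -0.36 (Mcm2) to -0.59 (Mcm5).

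Among the fork proteins, Gins4 had 16.4, 19.8, 17.8 and 16.0 CPM in the middle libraries of F5, G5, H7 and Parental, against 20.03 to 25.3 CPM (median 22.7) in the outer libraries. The highest middle value, in G5, stood just below the lowest outer value, in F5, and the log2 fold change was -0.36 (SE 0.06, edgeR adjusted p = 0.0014). Pola1, the catalytic subunit of polymerase alpha, had 61.3, 62.5, 70.8 and 48.7 CPM in the middle libraries, against 77.8 to 90.5 CPM (median 84.3) in the outer libraries. Its log2 fold change was -0.48 (SE 0.07, edgeR adjusted p = 0.000917). Pola2 had 53.7, 55.5, 51.5 and 42.2 CPM in the middle libraries, against 57.0 to 76.2 CPM (median 68.7) in the outer libraries, at a log2 fold change of -0.41 (SE 0.06, edgeR adjusted p = 0.00112). Neither gene overlapped. The clamp loader subunit Rfc3 had 20.2, 19.6, 24.3 and 18.3 CPM in the middle libraries, against 24.8 to 31.2 CPM (median 27.6) in the outer libraries, at a log2 fold change of -0.44 (SE 0.06, edgeR adjusted p = 0.000833). Pcna had 88.0, 90.8, 100.2 and 77.4 CPM in the middle libraries, against 107.6 to 128.9 CPM (median 119.0) in the outer libraries, at a log2 fold change of -0.42 (SE 0.07, edgeR adjusted p = 0.00243). Rfc3 and Pcna did not overlap. Lig1 had 61.1, 66.2, 86.2 and 59.6 CPM in the middle libraries, against 78.3 to 98.7 CPM (median 93.7) in the outer libraries. Its H7 middle value was above the lowest outer value, and its log2 fold change was -0.42 (SE 0.07, edgeR adjusted p = 0.00252).

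Genes that rebuild chromatin behind the fork moved in the same direction. Chaf1b, a subunit of the histone chaperone CAF-1, had 17.7, 18.0, 25.1 and 16.9 CPM in the middle libraries of F5, G5, H7 and Parental, against 25.7 to 31.6 CPM (median 27.8) in the outer libraries. The log2 fold change was -0.53 (SE 0.07, edgeR adjusted p = 0.000812). Uhrf1 had 188.5, 178.9, 205.0 and 140.5 CPM in the middle libraries, against 227.5 to 293.1 CPM (median 257.8) in the outer libraries, at a log2 fold change of -0.52 (SE 0.08, edgeR adjusted p = 0.00136). Neither gene overlapped between middle and outer libraries. Slbp, which binds the stem-loop of histone messages, had a smaller fall, 0.25 on the log2 scale (SE 0.05, edgeR adjusted p = 0.00572, a fall by decrease). Over the whole list, 25 genes had all 4 middle libraries below all 8 outer ones, as did 3.88% of all genes.

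**Figure D4:**
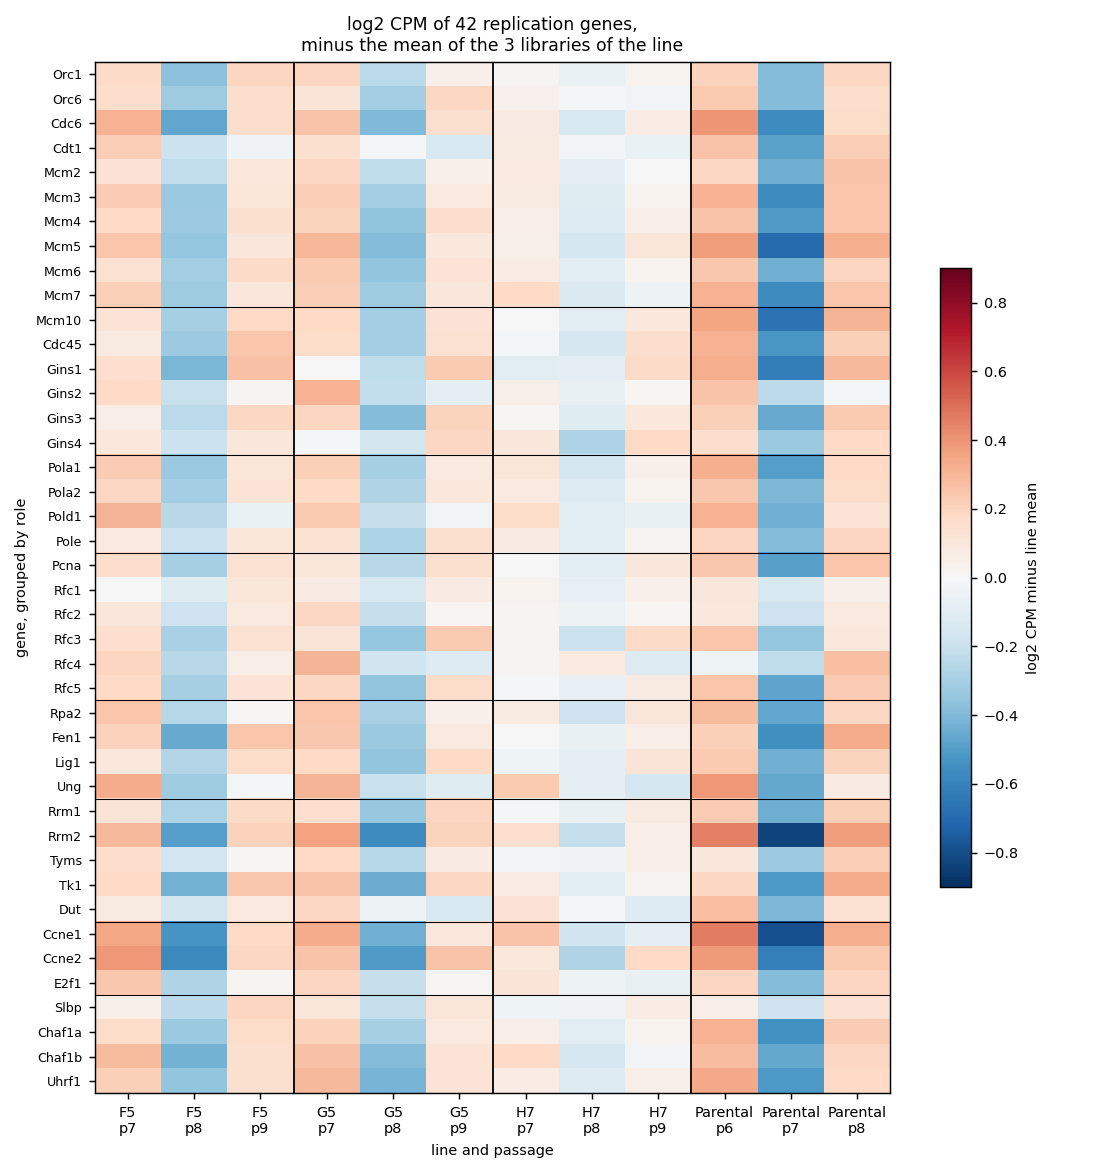
Each row is 1 of the 42 genes, grouped by role, and each column 1 library, with the clones F5, G5 and H7 left of Parental and passages in order within a line. Colour gives log2 CPM minus the mean of the 3 libraries of that line: the middle column of each line is blue for nearly every gene, deepest in Parental passage 7 and palest in H7 passage 8.

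The order of passages held within lines. The middle library was the lowest of the 3 for 42 genes in F5 (37.7% of all genes), 40 in G5 (36.8%), 34 in H7 (32.2%) and 42 in Parental (40.7%). It was the lowest in all 4 lines for 34 of the 42 genes, as for 13.3% of all genes. Orc6, Gins1, Rfc4, Ung, E2f1 and Slbp had it lowest in 3 lines, and Cdt1 and Dut in 2. The low library does not go with 1 passage number: at passage 8 the clones had their low values and Parental an outer one, and at passage 7 Parental had its low value and the clones outer ones. Summed over the list, the middle libraries held 1355 to 1823 TPM, against 1959 to 2251 TPM in the outer libraries, with no overlap.

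The median difference of log2 CPM, middle minus outer, was -0.45 in F5, -0.45 in G5, -0.14 in H7 and -0.69 in Parental. Rrm2 differed by -0.74 in F5, -0.85 in G5, -0.32 in H7 and -1.25 in Parental. Gins4 went the other way among clones, at -0.29 in F5, -0.25 in G5, -0.41 in H7 and -0.50 in Parental.

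**Figure D5:**
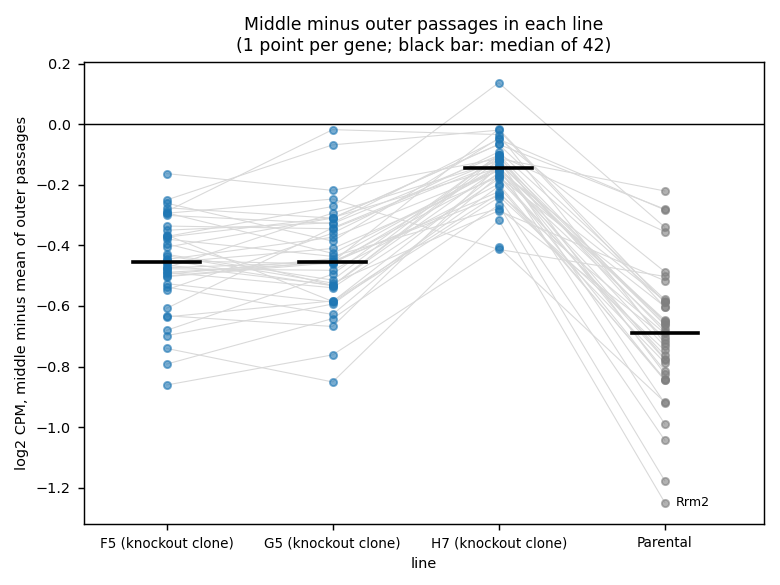
Log2 CPM of the middle library minus the mean of the 2 outer libraries, in F5, G5, H7 and Parental, 1 point per gene, with grey lines joining the values of 1 gene and black bars at the median of the 42. The medians are -0.45 in F5, -0.45 in G5, -0.14 in H7 and -0.69 in Parental, and Rrm2 has the lowest Parental value at -1.25.

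A fit with a middle-passage term for each line, added after the data were seen, called 31 genes lower in F5 (4.85% of all genes were called lower), 33 in G5 (5.96%), 0 in H7 (0.231%) and 40 in Parental (19.5%). The median of the list in H7 was -0.14 in this fit, beside 0.005 over all genes. Each of these terms rests on 1 middle library, and the fit takes its spread, with 3 residual degrees of freedom, from the other libraries, on the assumption that the middle ones vary like them. Differences between lines in the same fit therefore compare single middle libraries, and a line cannot be told apart from its library. In these libraries the fall was smaller in the mean of clones than in Parental for 22 of 42 genes (8.56% of all genes were called in this direction), and larger for 0 (6.35%). It was smaller in H7 than in Parental for 29 of 42 (7.52% of all genes), and larger for 0 (4.77%). DESeq2 called fewer genes than edgeR in both differences, within the list and over all genes. By DESeq2 the median difference of the list was 0.344 log2 units for clones minus Parental and 0.556 for H7 minus Parental. Rrm2 had the smallest p in both, with a difference of 0.61 log2 units for clones minus Parental (SE 0.08, edgeR adjusted p = 0.00242) and 0.93 for H7 minus Parental (SE 0.09, edgeR adjusted p = 0.00225). H7 against the mean of F5 and G5 gave 0 called genes of 42, with 30 at an unadjusted p under 0.05, in a comparison in which 0.0068% of all genes were called higher.

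Measures outside the list are given beside this result. Of the 16 G2 and mitosis genes, 15 were lower in the middle passages (15.6% of all genes were called lower) and 0 higher (16.5%). Their median log2 fold change was -0.41, and their summed level was 908.0 to 1087 TPM in the middle libraries and 1126 to 1315 TPM in the outer ones. The 8 fibroblast markers summed to 22370 to 27660 CPM in the middle libraries and 22400 to 25930 CPM in the outer libraries. Of these markers, Pdgfra (log2 fold change 1.17) and Thy1 (0.59) were higher in the middle passages and Vim (-0.28) was lower. The 14 markers of other cell types summed to 6.20 to 11.01 CPM in the middle libraries and 8.00 to 17.4 CPM in the outer libraries, and among them the neuronal tubulin Tubb3 was lower (-0.91). Library totals, the share of mitochondrial counts (2.26% to 2.95% in the middle libraries and 2.02% to 4.00% in the outer ones) and the share of the transcript Gm26917 (7.97% to 9.54% and 6.83% to 9.34% in the same order) overlapped between middle and outer libraries. The part of these measures in the result was not tested.

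Between the third and the first passage the test called 0 of 42 genes (1.12% of all genes), and DESeq2 called 0. At an unadjusted p under 0.05 were 3 of the 42, against 2373 of all 14704 tested genes. The median log2 fold change was -0.05, beside 0.004 over all genes. In the 9 knockout libraries alone 3 genes of the list were lower at the third passage (4.88% of all genes were called lower in that fit): Pold1, the catalytic subunit of polymerase delta (-0.29, edgeR adjusted p = 0.0117), Ung (-0.38, adjusted p = 0.0236) and Cdt1 (-0.23, adjusted p = 0.0461).

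The 62 other genes of replication, nucleotide supply, chromatin replication and G1-S control moved with the list between passages. In the middle passages 46 of them were lower (15.6% of all genes were called lower) and 2 higher (16.5%), with a median log2 fold change of -0.30. The smallest p-values were those of the nuclease-helicase Dna2 (-0.56), the primase subunit Prim1 (-0.50), the repressor E2f7 (-0.64), cyclin A2 (Ccna2, -0.45), the histone chaperone Asf1b (-0.75) and the polymerase epsilon subunit Pole2 (-0.42). The 2 higher genes were named after their values were seen. They were Rrm2b (0.33, adjusted p = 0.00726), the p53-induced small subunit of ribonucleotide reductase, and Rb1 (0.25, adjusted p = 0.0246), the retinoblastoma protein. Rrm2b and Rrm2 are alternative partners of Rrm1, which itself fell by 0.42 on the log2 scale.

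Against Parental, 4 of these 62 genes were called in the mean of clones, where 19.0% of all genes were. The higher ones were 3, Mtbp (0.68), which acts in origin firing, Rrm2b (0.71) and the small polymerase delta subunit Pold4 (0.47), and topoisomerase Top1 was lower (-0.20). Rrm2b had 14.7, 19.9 and 13.7 CPM in F5, 13.9, 18.3 and 14.4 CPM in G5 and 21.0, 20.8 and 19.8 CPM in H7, against 9.44, 12.8 and 9.31 CPM in Parental, so that every clone library was above every Parental one. In the mitosis list 1 of 16 was lower in the mean of clones, cyclin B2 (Ccnb2), which had 0.159, 0.0737 and 0.393 CPM in H7, against 13.1, 10.1 and 13.0 CPM in Parental. F5 and G5 had 9.16 to 13.5 CPM of Ccnb2, within or just beside the Parental range.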

How the data were processed

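Total RNA of 12 libraries (4 lines with 3 passages each) was analysed. Estimated counts, not normalised, and TPM of the same 48795 genes were deposited by the authors in 2 tables. Per the submitters' processing notes the genome build was GRCm38, and the other steps behind the counts (alignment, annotation, counting and strand) are not stated in the labels. Among deposited counts above 0.5, 86.9% were whole to within 0.01, and all were rounded for the tests. Symbols and coordinates came from GENCODE release M21 (48435 genes with a symbol).

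The filter was edgeR's filterByExpr with the 4 lines as groups, which 14704 genes passed. The test was edgeR 4.0.16's quasi-likelihood F-test in R 4.3.3 with TMM factors over all 12 libraries, with Benjamini-Hochberg adjustment over all tested genes and calls at an adjusted p under 0.05. Lines were compared with line as the only term (8 residual degrees of freedom, biological coefficient of variation 15.5%). Passages were compared with line and place in the passage order (6 degrees of freedom, 9.27%). Standard errors were taken from the F statistic, and CPM use TMM factors. The scripts were tested on simulated data. No libraries were duplicates: chi-square per degree of freedom was at least 21 for every pair within a line.

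Same-numbered clone libraries deviated together (correlation 0.153 to 0.501, 9 pairs), so the passage number was taken to pair the clones. Clone and Parental libraries of 1 number did not (-0.526 to -0.187, 6 pairs). By place, they deviated together at the first (0.398 to 0.468) and middle passages (0.38 to 0.503) but hardly at the third (0.045 to 0.109), with 3 pairs each.

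Alternatives were DESeq2 1.42.0, other size factors, no filter, limma 3.58.1 on log2(TPM + 1) and log2(TPM + 0.1), leaving out 3 abundant transcripts (Gm26917, Rn7s1 and Rn7s2), blocks, subsets and leaving out each library. The members and lists were chosen with earlier results of these data known. All 42 members could be named. Values by library are given for up to 10 called members a comparison and for the member with the highest TPM of each role, and up to 6 called genes a comparison are named from the other lists. Counting error is small at these totals for most members and largest for those of low level, such as Gins1. Reads of overlapping genes or near-identical copies could have been split.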

Additional observations from a re-analysis of the deposited data

Results flagged for a closer look

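In a term added after the data were seen, differences between lines were tested gene by gene and not for the list as a whole. For part of the list the fall at the middle passage differed from that in Parental. In these libraries it was smaller in the mean of clones than in Parental for 22 genes, among them Mcm10 (difference 0.64 on the log2 scale), Rrm2 (0.61), Cdt1 (0.61), Mcm5 (0.59) and Mcm3 (0.47). It was smaller in H7 than in Parental for 29 genes, with the smallest p-values for Rrm2 (0.93), Mcm3 (0.68), Mcm10 (0.85), Mcm4 (0.58) and Mcm7 (0.65). Each value rests on 1 middle library per line, with the spread taken from the other libraries, so that a line cannot be told apart from its middle library. The middle-minus-outer difference of log2 CPM of Rfc2 was -0.07 (-0.0668) in H7, far from the closely spaced -0.28 in F5, -0.31 in G5 and -0.28 in Parental. This gap was looked for in 42 genes over 4 lines, and chance gives it in about 1 of 20. A smaller fall in H7 was not particular to Rfc2. The median of the list was -0.14 in H7, against -0.45 in F5, -0.45 in G5 and -0.69 in Parental.

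Some replication and mitosis genes outside the list differed between clones. Ccnb2 was higher in F5 than in H7 (log2 fold change 5.72) and in G5 than in H7 (5.86), and the polymerase epsilon subunit Pole4 (0.48 and 0.49) and the dNTP hydrolase Samhd1 (0.32 and 0.31) were higher in the same comparisons. Mtbp was lower in F5 than in H7 (-0.53) and in G5 than in H7 (-0.57). Top2a was lower in F5 than in H7 (-0.42), and Top1 was higher in G5 than in H7 (0.25). The part of the shifts of whole chromosomes in H7 in these differences was not tested.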

How the results depend on the processing

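The count of lower genes at the middle passage stayed between 38 and 42 when any 1 library was left out. Without F5 passage 8, Gins1 lost its call (edgeR adjusted p = 0.0553). Line by line it was 0 in H7. Of 880 values of called genes under the alternatives, 876 kept their direction and side of the threshold, 4 lost the call and 0 turned. The passage fit of the 9 knockout libraries stands among them under both of its names, with 39 values each time. The mean of clones against Parental gave 1 called gene, Dut, by limma on log2(TPM + 1) and 1 on log2(TPM + 0.1). With a term for place the counts were 3 for the mean of clones, 2 for F5, 3 for G5, 6 for H7, 7 for F5 against H7 and 8 for G5 against H7. With only the libraries compared they were 0 for H7, 3 for F5 against H7 and 2 for G5 against H7, and DESeq2 gave 2 for G5 against H7. The replicate block of passage number on the 9 knockout libraries gave 13 for F5 against H7, 10 for G5 against H7 and 3 for the third against the first passage. For passages it is the same fit as that of these 9 libraries alone, since number and place coincide in the clones. On all 12 libraries the block changed no call of the list. Leaving out 1 library gave 0 for the mean of clones, F5, G5 and F5 against G5 in every case, 0 to 1 for H7, 0 to 2 for F5 against H7, 0 to 2 for G5 against H7 and 0 to 2 for the third against the first passage, the 2 each time without Parental passage 7. The smaller fall in clones than in Parental was found for 14 genes by DESeq2 and for 14 to 20 without 1 library, with 14 without F5 passage 7 and without G5 passage 9. For H7 against Parental it was found for 22 genes by DESeq2 and for 23 to 30 without 1 library. It could not be fitted without a middle library of a line it compares. The causes of these changes were not tested. The lowest value of the list was 3.28 CPM (Gins1 in Parental passage 7), and Gins1 had the largest SE of the list at the middle passage (0.12). The part of depth in this was not tested.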
